A study of Homo sapiens with 3 samples.

Results

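The transcripts described here come from 10 human genes whose proteins move new secretory and membrane proteins into the endoplasmic reticulum or load cargo into the vesicles that leave it. They were chosen by name, and an interval was counted as a member's when it overlapped the gene's window on the same strand by at least 1 nt in hg19. All 10 genes had clusters in both replicates. They held 139 of the 103134 clusters of replicate 1, 127 of the 66222 clusters of replicate 2 and 15 of the 2253 peaks that the authors listed as reproducible.

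The intervals come from eCLIP of TIA1 in HEK293T cells, an established human embryonic kidney line. In eCLIP, RNA joined to a protein by ultraviolet light is immunoprecipitated with that protein and sequenced, and its reads are set against an input that was not immunoprecipitated. There were 2 TIA1 immunoprecipitates, from cells given 600 mJ of ultraviolet light with no other treatment named, and 1 input from cells handled the same way, which served both. The library totals recovered from the deposited values were 2683407 and 1997817 reads for TIA1 replicates 1 and 2 and 2851338 reads for the input. The labels call the replicates technical in one place and biological in another, so the spread between them may be technical, and a protocol gives the antibody's catalogue number to Msi1 while the antibody field gives it to TIA1.

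TIA1 binds U-rich stretches of RNA, is known as a regulator of splicing and translation, and gathers in stress granules. Its known targets in mature messenger RNA are largely U-rich and AU-rich elements of the 3′ UTR, the stretch after the stop codon. Secretory proteins carry a signal sequence that brings the ribosome to the SEC61 channel. Helper proteins assist the passage, signal peptidase removes the sequence, and p24 proteins in the vesicle membrane then gather cargo at the exit.

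A cluster was called enriched at a log2 fold over input of at least 3, which is 8-fold or more, and a deposited −log10 p of at least 3. In replicate 1, 22 of the 139 clusters in these genes were enriched, or 15.8%, against 3.09% of all clusters. In replicate 2, 22 of 127 were enriched, or 17.3%, against 5.32% of all clusters. The clusters of 1 gene are not independent, and neighbours can be parts of a single site, so no interval is given. A cluster needs at least 13 reads in replicate 1 and 10 in replicate 2 to pass over 1 input read. Among clusters with that many reads, 22 of 29 (75.9%) were enriched in replicate 1, against 43.4% of all such clusters, and 22 of 32 (68.8%) in replicate 2, against 52.4%. Read number is itself part of the fold and the p, so these shares describe the clusters and do not divide the gap. The genes were picked with earlier results of these data known, and no test was made of these shares.

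The 15 reproducible peaks lay in 6 genes. SEC61A1 and SPCS3 held 4 each, TMED10 held 3, TMED2 held 2, and SSR1 and SEC63 held 1 each. SSR3, TRAM1, SERP1 and SEC62 had clusters but no reproducible peak. By role, the p24 receptors held 5 peaks, the channel subunit 4, signal peptidase 4, the 4 translocon-associated genes 1 and the auxiliary pair 1.

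**Figure D1:**
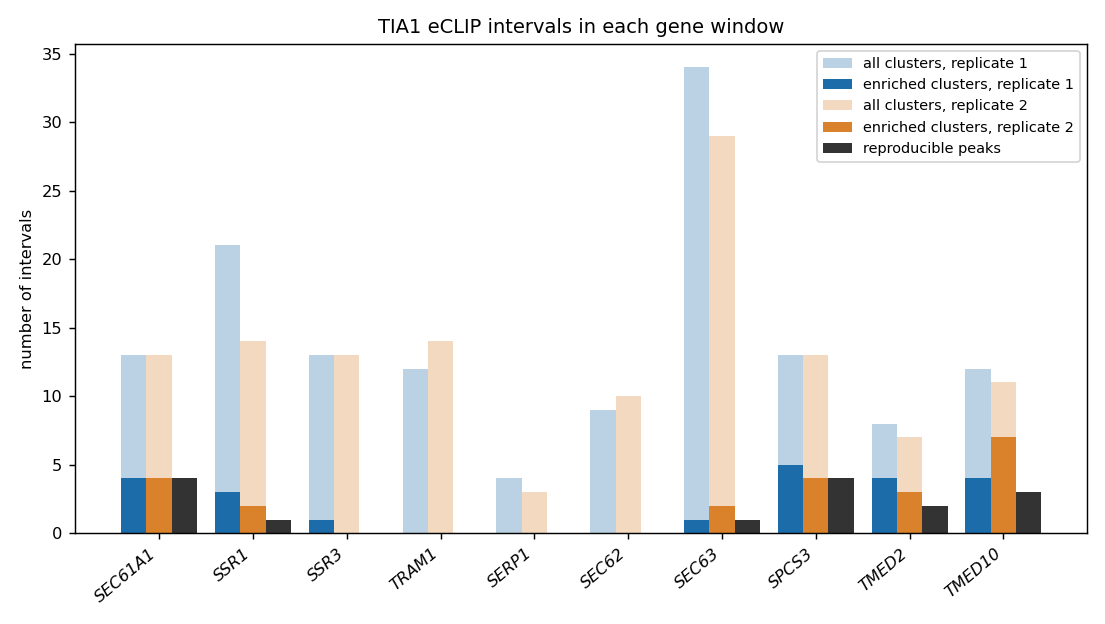
Number of TIA1 eCLIP intervals (y axis) in each gene window: pale bars are all clusters and solid bars enriched clusters of replicates 1 and 2, and black bars are reproducible peaks. SEC63 has the most clusters (34 and 29) but 1 and 2 enriched ones, while TMED10 has 4 and 7 enriched among 12 and 11.

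Member peaks had a median log2 fold of 4.51, or 22.7-fold, against 4.15, or 17.8-fold, over all reproducible peaks. They ran from 3.29 to 5.25, so none reached the top of the list, which stands at 7.23. Their median width was 50 nt, against 53 nt, and their median reads were 29 in replicate 1 and 24 in replicate 2, against 24 and 20. The input count was 1 at 7 of the 15 peaks (46.7%), against 51.3% of all peaks, and a count of 1 there can also mean that no input read was seen. Below, the input count is the reads of the input in the same interval, and a distance from the 3′ end is measured from the edge of the interval nearest to it. The SD of a fold is between replicates that share it, and so leaves out the error of the input.

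SEC61A1 encodes the α subunit of the channel itself. Its window is on chromosome 3, plus strand, from 127771212 to 127790526, and it held 13 clusters in each replicate, 4 of them enriched in each. The peaks came as 2 pairs. The first pair lay 6.33 to 6.37 kb from the 3′ end of the window, at 127784114 to 127784161 and 127784162 to 127784200, with no base between them. The first of these held 40 reads (replicate 1) and 24 reads (replicate 2) over 1 input read, a log2 fold of 5.25 ± 0.22 (SD, n = 2), which was the highest of the 15. Its neighbour had 17 and 20 reads over 1, at 4.51 ± 0.47 (SD, n = 2). The replicates divided this stretch of 87 nt at slightly different bases, so it may be read as a single site. Both parts had a log2 fold above 3 in both replicates.

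The second pair of SEC61A1 lay near the gene's end, at 127788626 to 127788663 and 127788794 to 127788845, 130 nt apart. The upstream peak had 18 reads (replicate 1) and 29 reads (replicate 2) over 1 input read, at 4.81 ± 0.79 (SD, n = 2). The downstream peak had 52 and 20 reads over 2, at 4.31 ± 0.67 (SD, n = 2). The upstream peak held more reads in replicate 2 and the downstream peak more in replicate 1. Neither difference passed the exact binomial test after adjustment over all 2247 peaks with whole reads (two-sided, adjusted p = 0.214 and 0.221).

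SSR1 encodes the α subunit of the translocon-associated protein complex, which sits beside the channel. Its window on chromosome 6, minus strand, from 7281284 to 7347677, held 21 clusters in replicate 1 and 14 in replicate 2, with 3 and 2 enriched. The 5 enriched clusters all lay between 6.62 and 7.45 kb from the 3′ end. The reproducible peak, at 7288086 to 7288155, held 29 reads (replicate 1) and 50 reads (replicate 2) over 3 input reads, a log2 fold of 3.97 ± 0.86 (SD, n = 2).

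At SSR1 alone, among the 15 peaks, the replicates' reads were further apart than counting error allows. Replicate 1 supplied 36.7% of its 79 reads, against 57.3% of the library totals (exact binomial test, two-sided, adjusted p = 0.0196 over 2247 peaks), where 1.82% of all peaks tested were called. Replicate 1 stood at a log2 fold of 3.36 and replicate 2 at 4.57, the widest gap among the 15, at 1.21. In replicate 1, 2 further clusters nearer the 3′ end were enriched, at 7287906 to 7287943 with 16 reads and 7287944 to 7287976 with 13, each over 1 input read. Replicate 2 held 8 reads at the first of these (log2 fold 3.51, −log10 p 2.32) and listed no cluster at the second. Replicate 2 was in turn enriched at 7288735 to 7288797 (16 reads over 2, log2 fold 3.51), where replicate 1 had 12 reads at 2.67.

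SSR3, another subunit of that complex (the γ subunit), came close without a reproducible peak. Its window on chromosome 3, minus strand, from 156257929 to 156272973, held 13 clusters in each replicate. Its best site was at 156259502 to 156259550 in replicate 1, with 13 reads over 1 input read, a log2 fold of 3.79 and a −log10 p of 3.14. Replicate 2 had 9 reads over 1 at 156259497 to 156259541, with a log2 fold of 3.68 and a −log10 p of 2.67. The folds at this site were thus nearly equal, and 9 reads fall short of the 10 that the −log10 p limit takes. Exact 95% intervals of the log2 fold were 1.05 to 9.20 and 0.83 to 9.14, both above 0. The site was picked as the best of its gene in each replicate, so these bounds do not by themselves show enrichment.

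TRAM1 encodes a membrane protein that contacts nascent chains as they enter the channel, and SERP1 encodes RAMP4, a small protein bound to the translocon. TRAM1, on chromosome 8, minus strand, from 71485677 to 71520622, held 12 clusters in replicate 1 and 14 in replicate 2, none enriched. The TRAM1 cluster with the highest −log10 p had 10 reads over 2 input reads in replicate 1 (log2 fold 2.41, at 71487068 to 71487123) and 11 over 2 in replicate 2 (2.97, at 71485908 to 71485960). SERP1, on chromosome 3, minus strand, from 150259780 to 150264619, has the shortest window and held 4 and 3 clusters, with at most 8 reads in replicate 1 and 6 in replicate 2. Every cluster of TRAM1 and SERP1 in both replicates lay above the input, as did 94.3% of all clusters of replicate 1 and 96% of replicate 2. No SERP1 cluster reached the reads needed to pass in either replicate, and in TRAM1 1 cluster of replicate 2 did.

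SEC62 and SEC63 encode partners of the channel that assist translocation after translation, SEC63 being a J-domain protein that recruits the lumenal chaperone BiP. SEC62, on chromosome 3, plus strand, from 169684580 to 169716161, held 9 clusters in replicate 1 and 10 in replicate 2 and none was enriched. Its best cluster in replicate 2, at 169712286 to 169712343, had 9 reads over 1 input read (log2 fold 3.68, −log10 p 2.67), and replicate 1 listed no cluster there. In replicate 1 the cluster with the highest −log10 p had 11 reads over 4 (log2 fold 1.55), near the start of the gene.

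SEC63 had clusters along its whole window. That window on chromosome 6, minus strand, from 108188960 to 108279482, is the longest at 90.5 kb and held 34 clusters in replicate 1 and 29 in replicate 2, of which 16 in each overlapped the other replicate. Over all clusters, 28.9% of replicate 1 and 45% of replicate 2 did so. The clusters were thin, with at most 17 reads in replicate 1 and 16 in replicate 2. Its reproducible peak, at 108189736 to 108189819, lay 0.776 kb from the 3′ end and held 14 and 16 reads over 1 input read, at 4.20 ± 0.44 (SD, n = 2). A further cluster 17.6 kb from the 3′ end, at 108206599 to 108206651, was enriched in replicate 2 with 11 reads over 1 (log2 fold 3.97). The overlapping cluster of replicate 1 had 12 reads, a log2 fold of 3.67 and a −log10 p of 2.86, just under the limit.

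SPCS3 encodes a noncatalytic subunit of signal peptidase. Its window on chromosome 4, plus strand, from 177241090 to 177253396, held 13 clusters in each replicate, 5 enriched in replicate 1 and 4 in replicate 2. The 4 reproducible peaks all ended within 3.84 kb of the window's end and lay apart, 651 to 750 nt from the nearest other. Furthest upstream, at 177249521 to 177249559, were 14 reads (replicate 1) and 12 reads (replicate 2) over 1 input read, at 3.997 ± 0.144 (SD, n = 2).

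Next along SPCS3, the peak at 177250211 to 177250260 had 21 and 24 reads over 1 and the highest fold of this gene, 4.79 ± 0.44 (SD, n = 2). At 177252393 to 177252462 there were 27 and 19 reads over 2, at 3.80 ± 0.06 (SD, n = 2). The last peak, at 177253213 to 177253292, ended 104 nt before the window did and had 39 and 26 reads over 4, at 3.29 ± 0.11 (SD, n = 2). It had the lowest fold of the 15 member peaks while holding more reads than the other SPCS3 peaks, and its input count was the highest of them. A cluster between the last peaks, at 177252757, had 30 and 20 reads over 7 but log2 folds of 2.19 and 2.03, below the limit in both replicates. Far upstream, at 177242191 to 177242261, replicate 1 was enriched with 15 reads over 1 (log2 fold 3.99), where replicate 2 had 4 reads at 2.51.

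TMED2 and TMED10 encode p24 family members that form complexes in COPI and COPII vesicles and act as receptors for GPI-anchored and other cargo. TMED2, on chromosome 12, plus strand, from 124069076 to 124083116, held 8 clusters in replicate 1 and 7 in replicate 2, with 4 and 3 enriched. All 8 clusters of replicate 1 and 6 of the 7 of replicate 2 lay within the length of its 3′ UTR, 1848 nt, from the end of the window. The peak at 124082160 to 124082197 held 48 reads (replicate 1) and 52 reads (replicate 2) over 2 input reads, at 4.94 ± 0.38 (SD, n = 2). The peak at 124082231 to 124082292, 33 nt further on, had 93 and 68 reads over 3, at 5.03 ± 0.02 (SD, n = 2), and its −log10 p of 22.1 ranked 89th of 2253.

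Replicate 1 split the second TMED2 peak into 2 enriched clusters, of 55 and 87 reads, where replicate 2 had 1 of 68 reads, so their counts of enriched clusters do not number sites alike. Over the whole peak replicate 1 had 93 reads, fewer than its 2 clusters together. Reads that span clusters lying side by side were thus counted in each. On either side of the peaks, replicate 1 alone was enriched at 124082022 to 124082054 (27 reads over 2, log2 fold 3.84), where replicate 2 had 11 reads at 2.97. Replicate 2 alone was enriched at 124082416 to 124082445 (17 reads over 2, log2 fold 3.60), where replicate 1 listed no cluster.

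TMED10, on chromosome 14, minus strand, from 75598173 to 75643349, held the member peak with the most reads. At 75601196 to 75601245 it held 120 reads (replicate 1) and 69 reads (replicate 2) over 3 input reads, a log2 fold of 5.22 ± 0.26 (SD, n = 2). Its −log10 p of 22.5 was the highest of the 15 and ranked 83rd of 2253. A neighbour 65 nt nearer the 3′ end, at 75601080 to 75601130, had 27 and 18 reads over 1, at 4.76 ± 0.11 (SD, n = 2). The third peak, at 75599308 to 75599353, had 40 and 33 reads over 4, at 3.48 ± 0.10 (SD, n = 2).

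Beyond the peaks, TMED10 had 4 enriched clusters in replicate 2 that were not enriched in replicate 1, with 10 to 14 reads each over 1 input read. Replicate 1 listed clusters at 2 of those 4 places, with 12 and 11 reads and log2 folds of 3.67 and 3.55, below the −log10 p limit. Replicate 1 was enriched at 75599069 to 75599100 (22 reads over 2, log2 fold 3.55), where replicate 2 had 11 reads at 2.97. In replicate 2, 7 of its 11 clusters were enriched (63.6%), the largest share of any member. In replicate 1, 4 of 12 were (33.3%), below TMED2 (50.0%) and SPCS3 (38.5%). In both replicates all of its enriched clusters lay within the length of its 3′ UTR, 3415 nt, from the end of a 45.2 kb window.

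**Figure D2:**
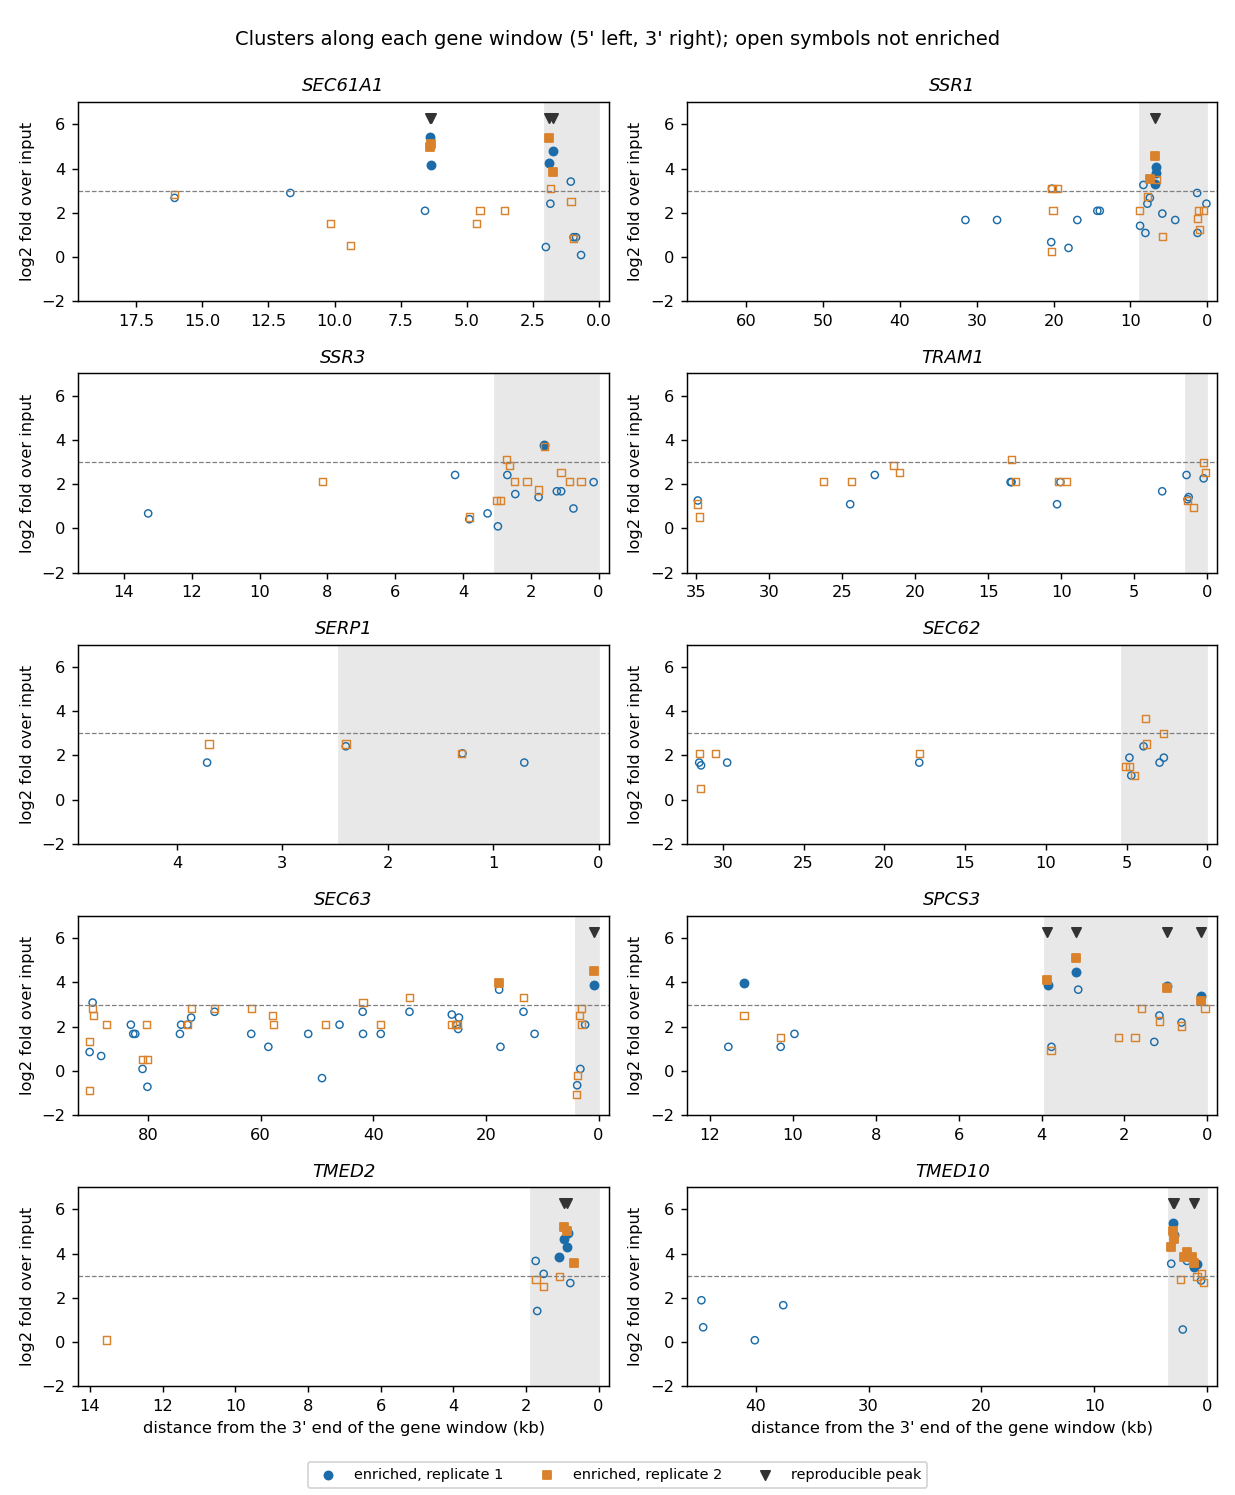
Log2 fold over input (y axis) of every cluster against its distance from the 3′ end of the gene window in kb (x axis, 5′ left): circles are replicate 1, squares replicate 2, filled symbols enriched, triangles reproducible peaks, the dashed line a log2 fold of 3 and grey the length of the 3′ UTR in GENCODE release 29. Filled symbols gather at the right in SSR1, SPCS3, TMED2 and TMED10, while SEC61A1 has a second group near 6.3 kb and SEC63 has clusters along its whole 90.5 kb.

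Most peaks lay near the ends of the genes. No genome sequence or annotation in hg19 was used here, so distances from the 3′ end of each window were set against the length of the 3′ UTR of the gene's principal transcript in GENCODE release 29. No position was converted between builds, and the window's end and the transcript's end can differ. By that measure 13 of the 15 peaks lay within a distance shorter than the 3′ UTR. The exceptions were the pair in SEC61A1 at 6.3 kb, whose 3′ UTR is 2020 nt long. The furthest SPCS3 peak was a near case, its 5′ edge lying 39 nt inside a 3915 nt limit. Whether the SEC61A1 pair is exonic or intronic was not determined.

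Most enriched clusters overlapped the peaks, so their placing is not separate from that of the peaks. Inside the length of the 3′ UTR lay 19 of 22 in replicate 1 and 19 of 22 in replicate 2. Of all clusters in these genes, 71 of 139 (51.1%) and 71 of 127 (55.9%) lay there. Reads followed by gene: TMED2 had 100% of its recovered cluster reads there in each replicate, and TMED10 had 95.1% in replicate 1 and 100% in replicate 2. SPCS3 had 86.9% and 94.4%, SSR1 78.5% and 79.1%, SEC61A1 60.4% and 50.4%, and SEC62 56.5% and 74.5%. SEC63 was the lowest in both replicates, at 11.1% and 21.2%. A 3′ UTR takes up 4.26% of the TRAM1 window and 4.36% of that of SEC63, against 31.8% in SPCS3 and 50.8% in SERP1, so these shares are not densities.

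**Figure D3:**
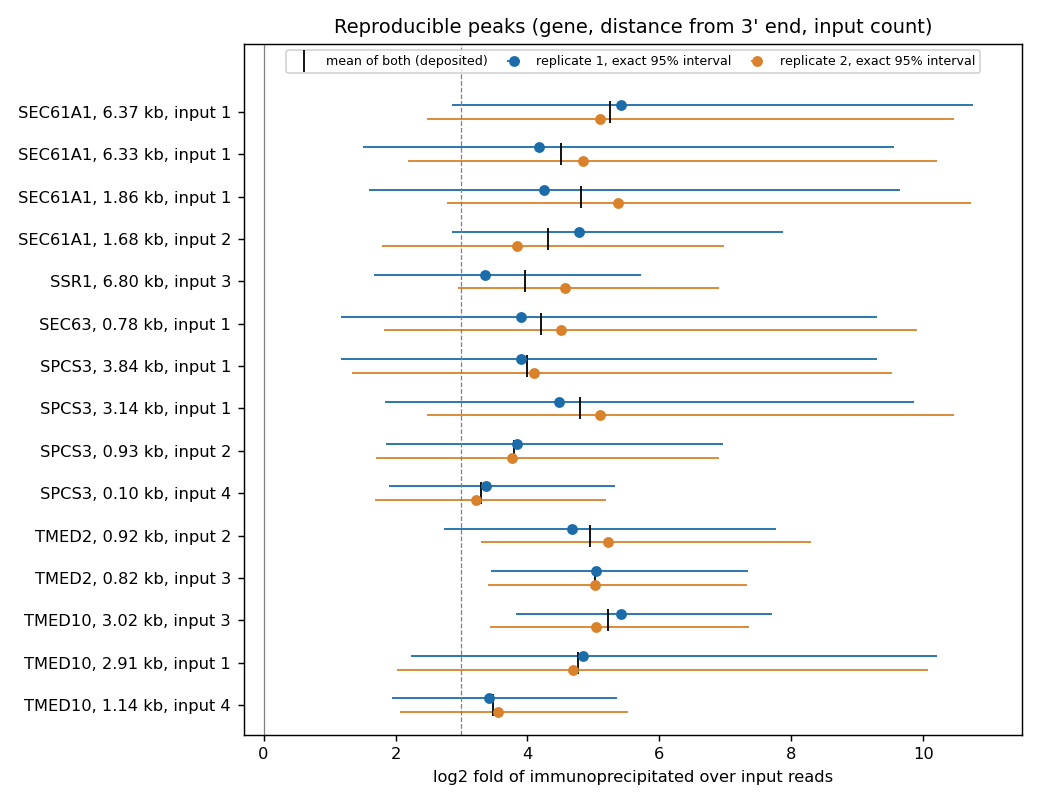
Log2 fold of immunoprecipitated over input reads (x axis) at the 15 reproducible peaks, labelled by gene, distance from the 3′ end and input count: dots are replicates with exact 95% intervals from read counts and black ticks the deposited mean, with the dashed line at 3. The intervals are widest where the input count is 1 and narrowest at the peaks of TMED10 and SPCS3 nearest the 3′ end, where it is 4.

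The replicates were then compared at the 15 peaks. All 15 reached a log2 fold of 3 in both, as did 95.2% of all reproducible peaks. The fold was higher in replicate 1 at 7 and in replicate 2 at 8, with a median absolute difference of 0.37 on the log2 scale, against 0.29 over all reproducible peaks. A difference over 1 occurred at 2 member peaks, in SSR1 and SEC61A1, against 90 of all 2253. The best matched was the second TMED2 peak, at 5.04 and 5.02. Exact 95% intervals from the reads all lay above a log2 fold of 1 in both replicates, the lowest bound being 1.18 at SEC63 and at the furthest SPCS3 peak. Bounds above 3 in both replicates were found at the second TMED2 peak (3.45 and 3.41) and the strongest TMED10 peak (3.83 and 3.43). These intervals cover counting error only and take an input count of 1 as an observed read. The peaks were listed for high folds and low p-values, so bounds above 1 are no separate support.

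Seen from clusters, 16 of the 22 enriched in replicate 1 (72.7%) overlapped an enriched cluster of replicate 2, against 63.4% of all enriched clusters of replicate 1. From replicate 2 it was 15 of 22 (68.2%), against 57.1%. These overlaps share the input, so they are not independent. There were 13 enriched clusters outside the peaks, 6 in replicate 1 and 7 in replicate 2. At 9 of them the other replicate had an overlapping cluster with a lower −log10 p, and at 4 it listed none. Counting any overlapping cluster, 21 of the 22 enriched in replicate 1 (95.5%) had one in replicate 2, against 95.1% of all enriched clusters. From replicate 2 it was 19 of 22 (86.4%), against 95.1%.

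Since reads enter the fold and p behind a peak, a split of the genes by having a peak also splits them by reads and fold, and the values that follow are a description of that split. The 6 genes with a peak had clusters of up to 120 reads in replicate 1 and 68 in replicate 2. In the 4 genes without a peak the most was 13 and 11, and 1 of their 38 clusters in replicate 1 and 2 of their 40 in replicate 2 had enough reads to pass. The median log2 fold of their clusters was 1.67 in replicate 1 and 2.10 in replicate 2, against 2.09 and 2.68 in the 6 genes with a peak. Summed over recovered clusters, TMED10 had 98.8 and 101 RPM (reads scaled to the library total) and TMED2 94.7 and 81.1, while SERP1 had 7.08 and 7.01. Those sums covered 445 and 430 nt in TMED10, 215 and 217 nt in TMED2 and 133 and 126 nt in SERP1. In TMED2 the sum of replicate 1 is too high, since reads spanning its side-by-side clusters were counted in each. How much of an RNA is present and how much of it is bound cannot be told apart from cluster reads alone.

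**Figure D4:**
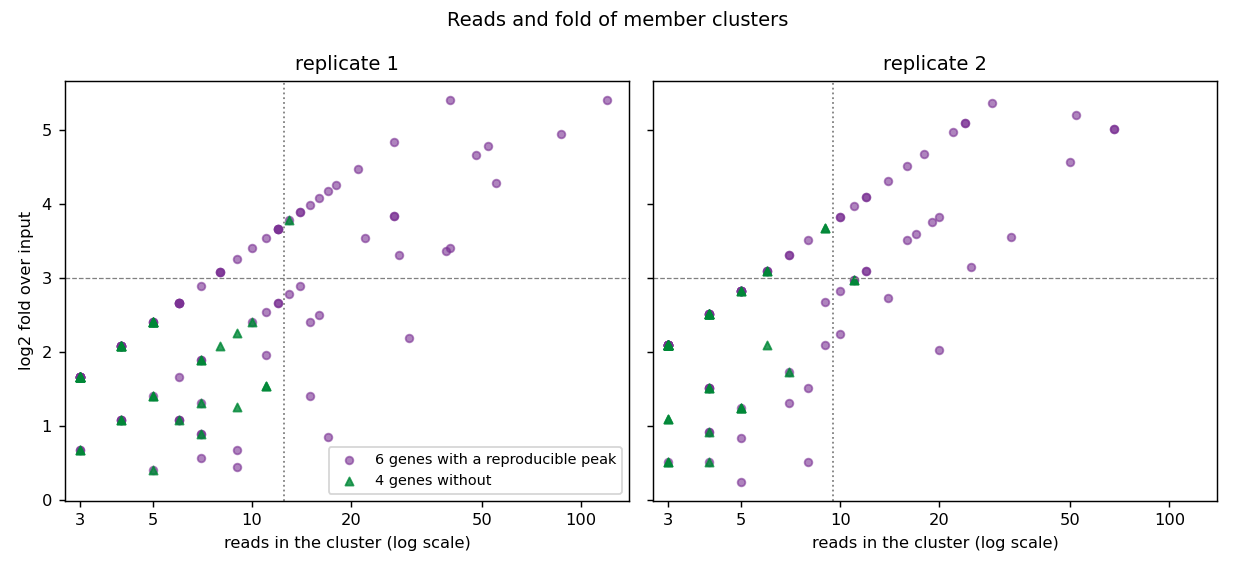
Log2 fold over input (y axis) against the reads of each member cluster (x axis, log scale) for replicates 1 and 2: purple dots belong to the 6 genes with a reproducible peak and green triangles to SSR3, TRAM1, SERP1 and SEC62, the dotted line marks the least reads that can be enriched (13 and 10) and the dashed line a log2 fold of 3. Nearly all triangles lie left of the dotted line.

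Apart from SEC61A1, the members had more U in their 3′ UTRs than the median gene. The genes were picked by name with earlier results of these data known, so their U content is given as a description. In GENCODE release 29, U made up a median of 34.6% of the members' 3′ UTRs, against 29.6% over 17568 protein-coding genes with a 3′ UTR of at least 100 nt. Runs of 5 or more U occurred 6.26 times per kb in the members' median, against 2.98, and the longest run was 12.5 U in the median, against 6. Their 3′ UTRs were also long, with a median of 3239 nt, against 994 nt. The gene with the most runs was SSR1, with 53 in 8721 nt, and its longest run was 22 U, as in SSR3. No base sequence of a peak is given, since none was at hand in hg19.

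U content did not follow the peaks gene by gene. TRAM1, with no peak, had the highest U share (37.9%) and the most runs per kb (10.7) of the 10. TMED2 came next at 37.4% and 8.12. SEC61A1, with 4 peaks, had the lowest at 24.6% and 1.98 runs per kb, both under the medians of all genes. However, 2 of its peaks lay beyond the length of its 3′ UTR, and these values do not cover them. SERP1 had 35.4% U but 3.25 runs per kb. The other 6 ranged from 32.6% to 35.5% U and from 4.90 to 7.41 runs per kb. These values describe whole 3′ UTRs, not the bound stretches.

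**Figure D5:**
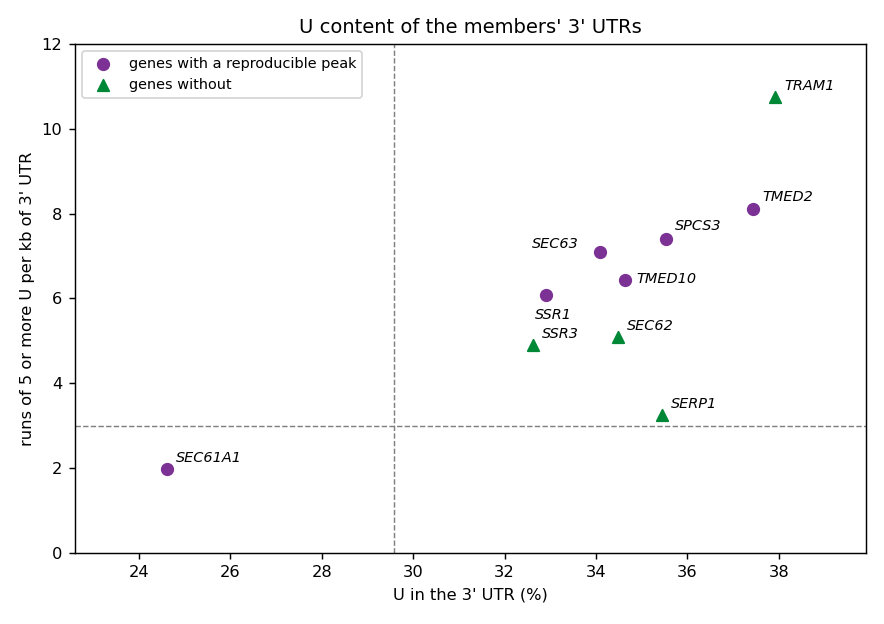
Runs of 5 or more U per kb of 3′ UTR (y axis) against the percent of U in the 3′ UTR (x axis) in the principal transcript of each gene, with dashed lines at the medians of 17568 protein-coding genes: dots are genes with a reproducible peak and triangles genes without. Apart from SEC61A1, all members lie above both medians.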

How the data were processed

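TIA1 eCLIP was analysed from 3 deposited interval lists, 1 per replicate and 1 of reproducible peaks. The submitters' processing notes name hg19, STAR 2.4.0i, SAMtools 1.4.1 and cutadapt (1.9.1 and 1.14); what called the clusters is not given in the sources used here. Units were taken from the values, as headers are lacking. The authors deposited a −log10 p-value of each interval's reads against the input, capped at 400. At member peaks it was the lower of the replicates' values where these could be compared. The first TMED2 peak, for example, had 12.3, with 12.3 in replicate 1 and 17.3 in replicate 2. They also deposited a log2 ratio of immunoprecipitated to input reads scaled by library, averaged over both replicates in the list of peaks.

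Reads were recovered from the steps of the log2 fold and by matching each p-value within a relative tolerance of 2e-05. At 15 of 15 member peaks both replicates gave whole reads (tolerance 1e-04), the replicate that did not supply the bounds being derived from the deposited mean. No reads were recovered for 8 and 4 member clusters of replicates 1 and 2, all at log2 folds of 0.10 or less, and these are left out of sums. Recovery and the binomial test were checked on simulated data. Intervals are exact (Clopper-Pearson, 95%), cover counting error only and treat reads as independent molecules. P-values of the binomial test were adjusted by Benjamini-Hochberg over all peaks. No test of enrichment across samples was possible with 1 input. Python 3.11.15, pandas 2.3.3, NumPy 2.4.6 and SciPy 1.17.1 were used.

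The members, lists and tests were chosen with earlier results of these data known. All 10 genes and every reproducible peak in them are named, with, outside peaks, the enriched clusters or the best cluster of a gene; the unenriched clusters named in SPCS3 and SEC63 were singled out after their values were seen. A longer list of pathway genes was not placed, since no annotation in hg19 was used. Base composition came from GENCODE release 29, from the principal transcript of each gene (the longest where several tie). Alternatives covered the limits of enrichment, overlap, strand, leaving out each replicate and the input count.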

Additional observations from a re-analysis of the deposited data

How the results depend on the processing

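Of 28 alternatives, 17 kept the value (a count within 1.5 times, a median within the spread between replicates, or a share within its exact interval) and 11 did not. That exact interval treats clusters as independent, which those of 1 gene are not, so it serves only as a nominal limit. With limits raised to 4 (log2 fold) and 5 (−log10 p), replicate 1 kept 8 enriched clusters and replicate 2 kept 10. At these limits 7 reproducible peaks were left, in SEC61A1, SPCS3, TMED2 and TMED10. The share of all intervals past the raised limits was not computed. On the opposite strand there were 0 enriched clusters in each replicate, 0 peaks and 0 genes. Only a single cluster was listed there, so these counts of 0 say little. They are among the 11 that did not keep the value. The median log2 fold of the peaks was 4.14 over peaks with an input count of 2 or more and 4.91 over the highest peak of each gene. Counting any cluster of replicate 2, the overlap was 95.5%, against 95.1% over all enriched clusters of replicate 1. With no adjustment, 3 of the 15 peaks differed between replicates instead of 1, against 230 of all 2247 peaks tested.

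Counting enriched clusters of the other replicate alone gave 22 intervals without replicate 1 and 22 without replicate 2, in 6 and 7 genes, SSR3 being the seventh; the median log2 fold at the peaks was 4.68 without replicate 1 and 4.26 without replicate 2. Joining peaks across gaps of at most 100 nt, chosen after seeing the data, gave 12 sites. No paired analysis was possible because the input carries no replicate number and serves both immunoprecipitates. Small input counts limit every fold. GENCODE release 29 names 2 pseudogenes each of SSR1, SEC63 and TMED10, and how reads shared with them were placed is not given in the sources used here.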

Other observations

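Clusters at the starts of the genes had a lower median log2 fold than those at their ends. In the first 500 nt of the windows there were 5 clusters in replicate 1 and 7 in replicate 2, from SEC62, SEC63, TRAM1, TMED2 and TMED10. None was enriched, but only 3.09% and 5.32% of all clusters were, so none among so few does not set the starts apart. The clusters in those first 500 nt had a median log2 fold of 1.55 (replicate 1) and 0.51 (replicate 2). Clusters within the length of the 3′ UTR had 2.41 and 2.74. The median input count was 4 and 3 in the first 500 nt, against 2 and 2. The much longer stretch between held 63 and 49 clusters, with a median log2 fold of 1.67 and 2.10. These numbers of clusters were not scaled by length, so they do not show the starts to be sparse. The SEC63 cluster at 108279239 to 108279350 had the most reads of that gene in replicate 1, 17, over 10 input reads, a log2 fold of 0.85. The first 500 nt were chosen after the values were seen, and the clusters at either end were not compared by a test.

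Member peaks also lay close to one another. Another peak within 100 nt on the same strand was found for 6 of the 15, in SEC61A1, TMED2 and TMED10, against 324 of all 2253 reproducible peaks. Since a gene with more peaks has more neighbours, these counts are given as a description. A single cluster was listed on the strand opposite to a member, in SEC61A1 in replicate 1, with 3 reads over 1 input read.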
